A study of Mus musculus with 9 samples.

Results

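The miRNAs mmu-miR-210, a textbook marker of low oxygen, and mmu-miR-21 and mmu-miR-31, known from tissue injury, were followed in late fetal mouse lung. The prefix for mouse is left out from here on. They were chosen by name, as 3 of the 566 mouse miRNA probes on a 626-probe NanoString nCounter panel, an assay that counts single reporter-labelled molecules without amplification. The samples were total RNA of C57BL/6 lungs at E18.5, late in gestation, 4 labelled Bim3'UTRmut/mut (replicates 6 to 9, here "mutant") and 5 labelled wild type (replicates 1 to 5), with 100 ng of RNA per sample. The mutant allele changes the 3′ untranslated region of Bim, which encodes a pro-apoptotic protein and is targeted there by the miR-17-92 cluster. None of the 3 miRNAs belongs to that cluster. Whole lung was measured, so fewer cells of a type and less RNA per cell cannot be told apart. The labels give no litter or sex and do not say that each sample is a separate embryo, so p-values measure only the spread between these samples.

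miR-210 is the miRNA most closely tied to low oxygen. Hypoxia-inducible factor switches it on, and it represses the iron-sulphur cluster scaffold Iscu and so damps mitochondrial respiration. miR-21 rises in injured and fibrotic lung and heart, largely in fibroblasts and macrophages, and represses the translation inhibitor Pdcd4. miR-31 is known from epithelial repair and from tumours. Fetal lung develops in the low oxygen of the womb, before air breathing begins.

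Their mature sequences are shown because the seed decides which mRNAs each miRNA binds, and because miR-21 has near copies in the mouse genome. Sequences and positions are from RefSeq (GRCm38.p6), are written 5′ to 3′, and have the seed, bases 2 to 8, in capitals.
miR-210-3p: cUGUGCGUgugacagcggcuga
miR-21a-5p: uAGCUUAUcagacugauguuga
miR-21b: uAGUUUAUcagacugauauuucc
miR-21c: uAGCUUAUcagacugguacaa
miR-31-5p: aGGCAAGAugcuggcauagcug
The panel names give no arm, and the probes were matched to these arms through their miRBase identifiers from background knowledge, not from a deposited table. On that match the miR-210 probe reads the 3p arm, encoded at chr7:141221407-141221428 on the minus strand, and no overlapping gene is annotated there. The neighbouring protein-coding genes of Mir210 are Rassf7 and Gm51460. The miR-21 probe reads miR-21a-5p at chr11:86584120-86584141, minus strand, within the annotated span of the protein-coding gene Vmp1. The miR-31 probe reads miR-31-5p at chr4:88910614-88910635, minus strand, within the long non-coding RNA gene Gm49890. The 3 measured miRNAs have different seeds. miR-21c (chr8:128278188-128278208, minus strand) has the seed of miR-21a-5p and 5 substitutions over 21 aligned positions, counted from the 5′ end. miR-21b (chr3:29636768-29636790, plus strand) has 4 substitutions over 22 positions, among them C4U inside the seed. Neither copy has a probe of its own on the panel, and how far they add to the miR-21 count was not tested.

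Mouse miRNA probes summed to 206964 to 289227 counts per sample, and the mean of the 8 negative controls ran from 28.1 to 79.1 counts. A miRNA was called detected in a lane when its count exceeded a threshold set from the negative controls there (their mean plus 2 SD), which came to 56.3 to 198 counts. Features of certain samples bear on every result. miR-208a, a miRNA of heart muscle, reached 1271 counts in mutant 8 and 1202 in wild type 3, above the limit of 500, against 15 to 54 in the other 7 samples. The summed counts of 5 heart markers were 29750 in mutant 8 and 22723 in wild type 3, against 262 to 433, whereas 5 lung epithelial markers summed to 1033 and 548, against 6490 to 8695. None of the 5 heart markers was at 0 in the others, but miR-208a, miR-208b and miR-499 reached at most 82 counts there. The liver miRNA miR-122 read 812 counts in mutant 8 and 812 in wild type 3, against 43 to 232. The endothelial sum was lower, at 18039 in mutant 8 and 19638 in wild type 3, against 26174 to 35493. It was mostly miR-126-3p, and miR-126-5p read 736 in mutant 8, inside 692 to 1140 in the others, and 541 in wild type 3. Skeletal muscle markers summed to 297 in mutant 8 and 146 in wild type 3, against 108 to 203. Among blood miRNAs miR-142-3p read 1082 in mutant 8 and 115 in wild type 3, against 98 to 251. miR-223 read 186 and 187, against 327 to 597. miR-150 read 281 and 124, against 217 to 536, and miR-142-5p 199 and 203, against 146 to 202. Erythroid miR-486 read 494 and 541, against 109 to 225. The other erythroid markers did not follow it in both samples. miR-451 read 1553 and 1228, against 1091 to 2641, and miR-144 143 and 84, against 65 to 141. The erythroid sum, 2190 and 1853, lay inside 1339 to 3002. Because these samples run against their lung label, the levels, the spread, the genotype comparison and the correlations are given with and without them. Apart from these, wild type 5 carries the comment of a mutant lung in both of its lanes in the deposited lane table. The sample label was followed, and results with it counted as mutant are also given.

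miR-210 and miR-21 were detected in fetal lung in every sample, and miR-31 was at the level of the assay background in most. miR-210 gave 281, 256, 509 and 264 counts in mutants 6 to 9, against 308, 281, 506, 209 and 292 in wild types 1 to 5. Mutant 8 and wild type 3 were nearly equal and stood far above the rest, and apart from them the genotypes overlapped. miR-21 gave 361, 586, 1012 and 379 counts in mutants 6 to 9, against 599, 447, 516, 263 and 435 in wild types 1 to 5. Here mutant 8 alone was far above the others, wild type 3 lay inside their range of raw counts, and the genotypes again overlapped. miR-31 gave 140, 54, 72 and 55 counts in mutants 6 to 9, against 39, 106, 65, 44 and 149 in wild types 1 to 5, and its highest values came from samples in lanes with a high background.

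**Figure D1:**
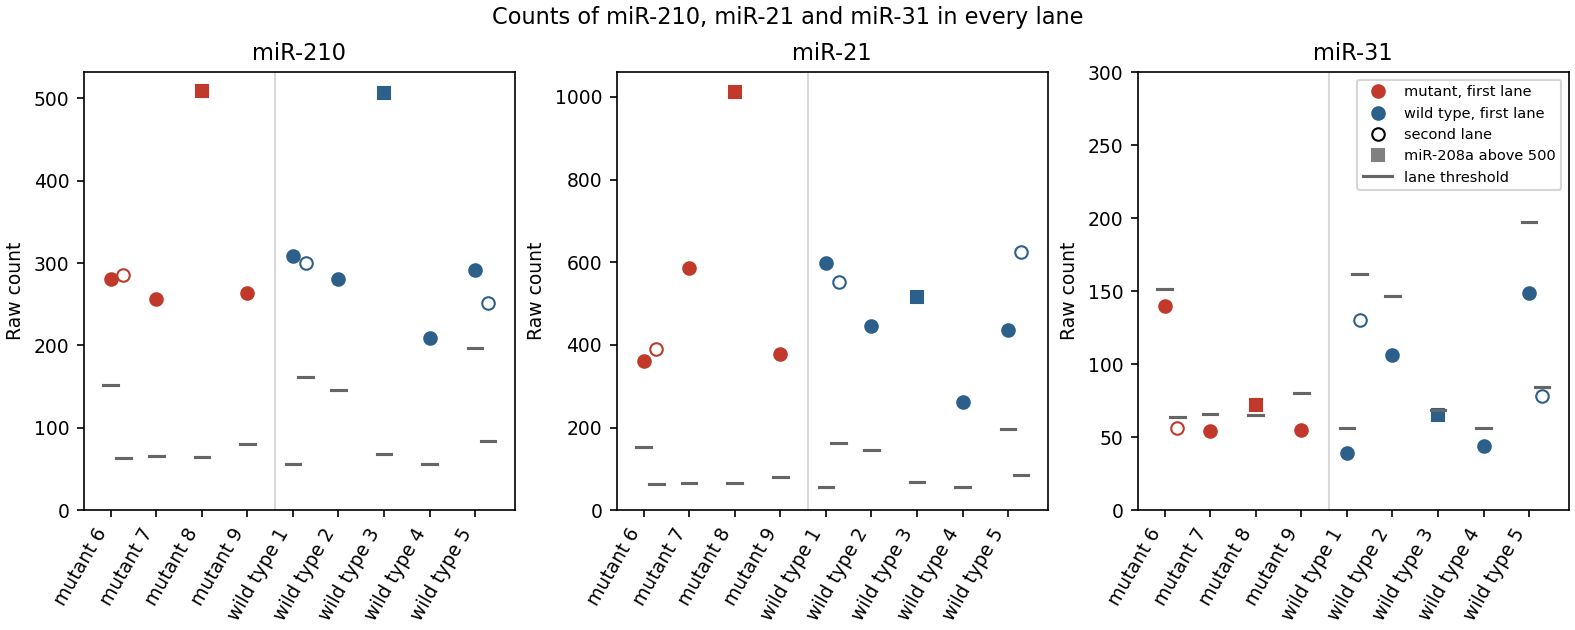
Raw counts (y axis) of miR-210, miR-21 and miR-31 in each sample, mutants left of wild types. Filled points are first lanes, open points second lanes of the same RNA, squares the samples with miR-208a above 500 counts, and grey bars the detection threshold of each lane. miR-210 and miR-21 lie above the bar in all 12 lanes, while miR-31 exceeds it in 1.

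In the 7 samples with low miR-208a, miR-210 held 0.103% ± 0.00781 and miR-21 held 0.166% ± 0.0363 of all mouse miRNA counts (SD, n = 7). Over all 9 samples the shares were 0.130% ± 0.0545 and 0.201% ± 0.0862 (SD). By raw count, in the 7 samples with low miR-208a, miR-210 ranked 76 to 90 and miR-21 ranked 55 to 76 among the 566 mouse probes. Both thus read well below the leading probes by raw count, which does not rank molar amounts. Over all 9 samples the ranks were 54 to 90 and 45 to 76. The order miR-21, then miR-210, held in each of the 9 samples, but wild type 3 had nearly equal counts, with a miR-21 to miR-210 ratio of 1.02. That ratio was 1.28, 2.29, 1.99 and 1.44 in mutants 6 to 9, against 1.94, 1.59, 1.02, 1.26 and 1.49 in wild types 1 to 5. Probes are not calibrated against each other on this panel, so the ratio can be compared between samples but does not give molar amounts. With the mean negative control subtracted, the share of miR-210 over the 7 samples was 0.0923% and that of miR-21 was 0.160%.

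miR-31 exceeded the lane threshold in 1 of 9 samples, mutant 8, where 72 counts stood against a threshold of 65.1. In every lane its count was 1.39 to 2.10 times the mean negative control. Across the 12 lanes, which include 3 samples with a second lane, its count followed the negative controls with a Pearson correlation of 0.97, against -0.16 for miR-210 and -0.21 for miR-21. Among the 298 mouse probes that passed in no sample the median of this correlation was 0.78, and among the 112 that passed in all 9 samples it was 0.27. The same RNA read 39 and then 130 counts of miR-31 in wild type 1, whose lanes had mean negative controls of 28.1 and 67.1. It read 140 and then 56 in mutant 6 and 149 and then 78 in wild type 5, where the second lane had the lower background. The thresholds correspond to 0.0203% to 0.0683% of mouse miRNA counts, so miR-31 below that level was not detectable at this depth. No genotype difference was therefore read for it.

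**Figure D2:**
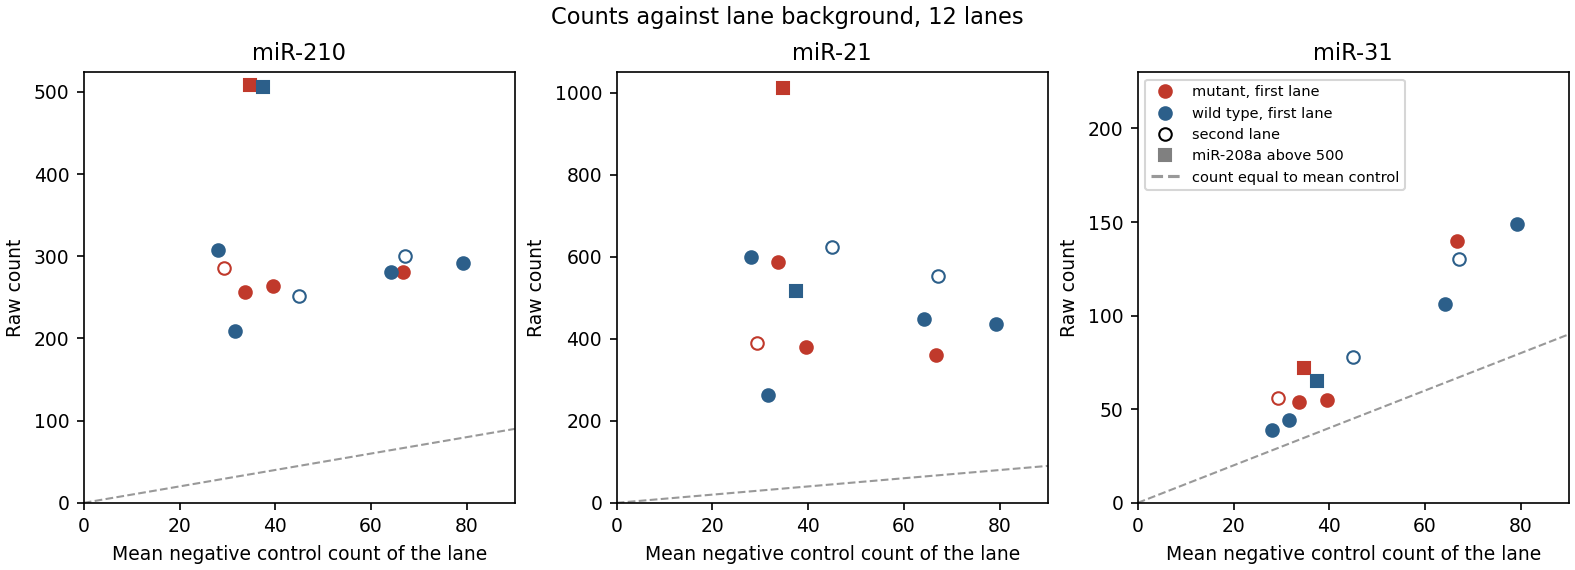
Raw count (y axis) against the mean negative control count of the lane (x axis) for the 12 lanes, with symbols as in the plot of counts in every lane and a dashed line where the count equals the control mean. miR-31 climbs with lane background from 39 to 149 counts, whereas miR-210 and miR-21 show no such rise.

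Over the 7 samples with low miR-208a the SD of miR-210 was among the smaller ones on the panel, less so with second lanes, and that of miR-21 among the larger ones. On log2 CPM (mouse miRNA counts scaled to a common total), with scaling by edgeR's trimmed mean of M-values (TMM), miR-210 lay between 9.80 and 10.09 in the 7 samples with low miR-208a, at 9.96 ± 0.10 (SD, n = 7). This SD was the 13th smallest of the 189 probes that passed the background filter in at least 4 samples. Only 1 of the 79 probes within 2-fold of its mean count had a smaller SD. Its share had a coefficient of variation of 7.57% over the 7 samples and 41.9% over all 9. With second lanes in place of first lanes the share over the 7 was 0.0997% ± 0.0125 (SD), a wider spread. miR-21 ranged from 10.21 to 11.003, at 10.61 ± 0.30, and its SD ranked 143 of 189. Its share had a coefficient of variation of 21.9% over the 7 samples and 42.8% over all 9, and 44 of the 52 probes within 2-fold of its mean count had a smaller SD. The rank of miR-210 was 13 to 19 under TMM, total count and top-100 scaling and after background subtraction. It was 36 with housekeeping scaling, 44 with positive control scaling and 59 when second lanes replaced first lanes in the samples that had them. That of miR-21 was 110 to 166 in the same settings.

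**Figure D3:**
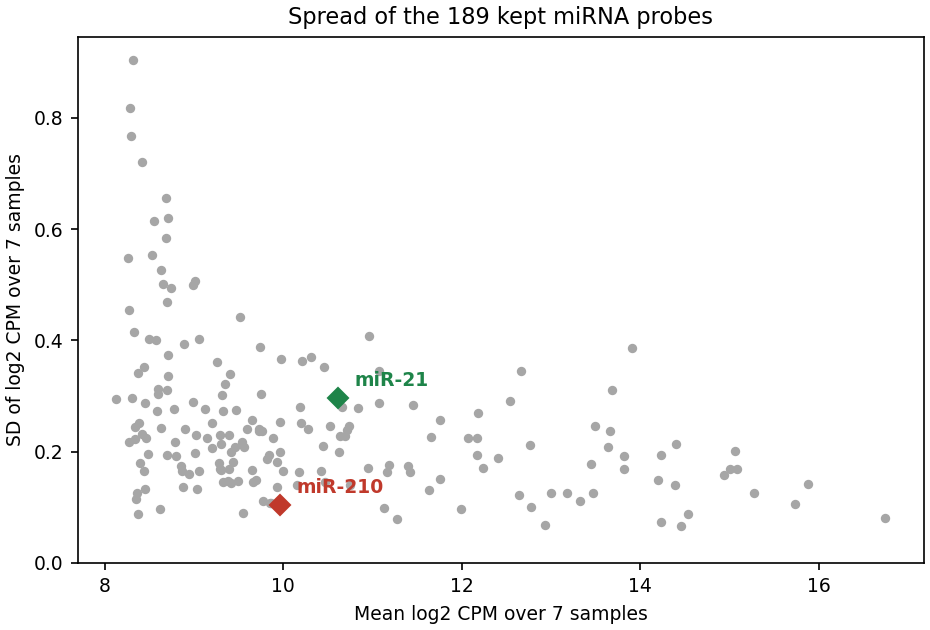
SD of log2 CPM over the 7 samples with low miR-208a (y axis) against mean log2 CPM (x axis) for 189 kept miRNA probes, each point 1 probe. miR-210 lies at the lower edge of the cloud with an SD of 0.10 and miR-21 at the upper side with 0.30.

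The repeat lanes gave the technical spread. Shares of miR-210 differed between lanes of the same RNA by -0.09 log2 in wild type 1, -0.37 in wild type 5 and 0.06 in mutant 6 (second over first). For miR-21 the differences were -0.16, 0.36 and 0.14 in the same samples. The SD of this difference over the 189 kept probes was 0.37 to 0.38 per pair, and the differences of both miRNAs were of that size or smaller. The kept probes include some that passed in only 4 samples, such as miR-221, and probes of like count were not compared here. In wild type 5 the lane moved miR-210 and miR-21 in opposite directions, each by more than its SD over the 7 samples.

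In the samples with cardiac markers both detected miRNAs read higher than in the rest, miR-210 under every scaling tried. miR-210 was 11.09 log2 CPM in mutant 8 and 11.57 in wild type 3, against 9.80 to 10.09 in the other 7 samples. Relative to the other samples of its own genotype this was 2.17-fold in mutant 8 and 3.08-fold in wild type 3, with an SD of 0.15 log2 among the other mutants (n = 3) and 0.08 among the other wild types (n = 4). The share of mouse miRNA counts was 0.202% (exact 95% binomial interval 0.185% to 0.221%) in mutant 8 and 0.244% (0.224% to 0.267%) in wild type 3, and these intervals cover counting error only. miR-21 was 12.08 log2 CPM in mutant 8 and 11.60 in wild type 3, against 10.21 to 11.003 in the other 7. This was 2.68-fold and 2.03-fold the other samples of the genotype, with an SD of 0.30 and 0.33 log2 among those. For miR-21 the excess in wild type 3 depended on scaling, with a log2 difference of -0.03 when positive controls were used. With housekeeping scaling the difference was 0.57, beside an SD of 0.51 among the other wild types. Wild type 3 then read 11.18, below the highest of the other 7 samples, 11.40.

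With 1 such sample in each genotype no test of these differences was made. The samples also differed in much else. Of the 189 kept probes, 50, or 26.5%, read above the highest of the other 7 in both samples and 31, or 16.4%, read below the lowest in both. An excess in both samples is therefore common on this panel. Heart marker counts were high in the same samples as miR-210 and miR-21, and their part in the result was not tested. Between the pair the raw heart marker sum was higher in mutant 8. Of the 5 heart markers miR-133a alone was higher in wild type 3, at 6016 counts against 5201. Total mouse miRNA counts also differed, at 251432 in mutant 8 and 206964 in wild type 3. Raw counts of miR-210 were 509 and 506. On log2 CPM with TMM miR-210 was higher in wild type 3. With positive control scaling it was higher in mutant 8, at 10.93 against 10.67. miR-31, at 8.30 log2 CPM in mutant 8 and 8.64 in wild type 3, lay inside the range of the other 7 samples, 7.14 to 9.04.

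**Figure D4:**
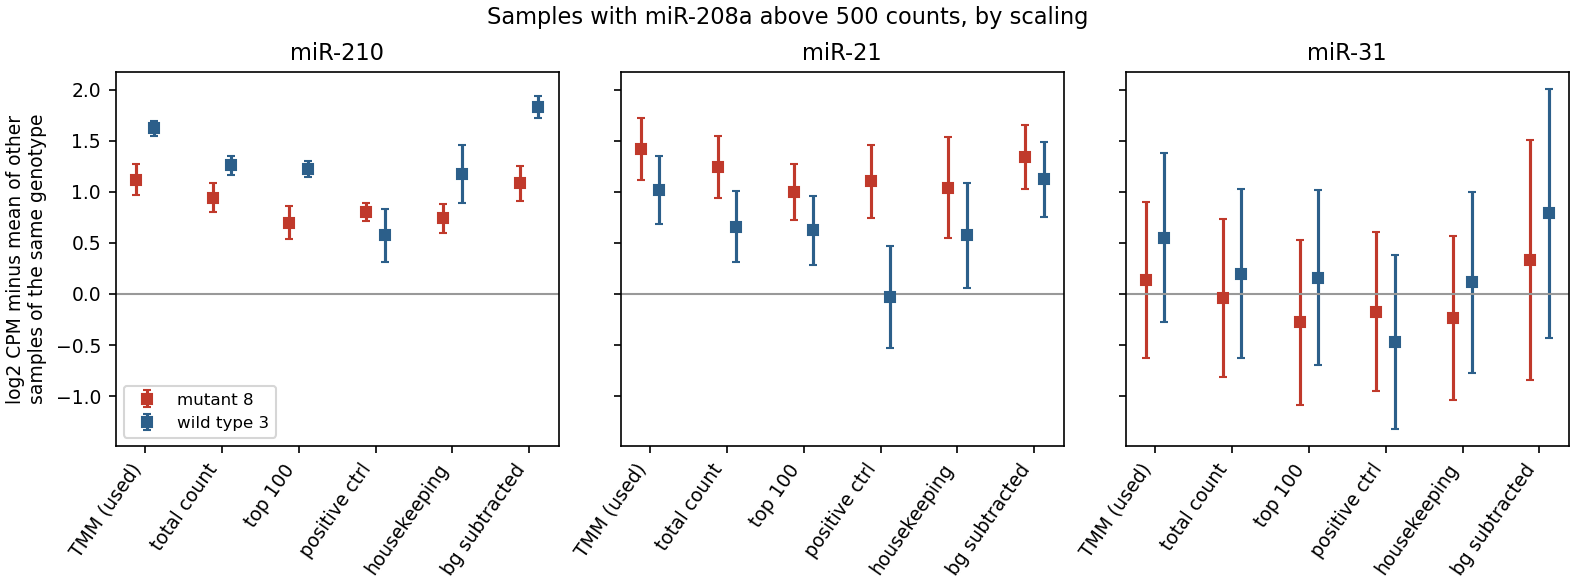
Log2 CPM of mutant 8 and wild type 3 minus the mean of the other samples of the same genotype (y axis) under 6 scalings (x axis). Bars are the SD among those other samples (3 mutants, 4 wild types). miR-210 stays above 0 in both samples throughout, between 0.57 and 1.83, while miR-21 in wild type 3 reaches -0.03 and miR-31 scatters around 0.

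The genotype comparison asked whether the allele goes with a change in these miRNAs. Neither miR-210 nor miR-21 passed edgeR's quasi-likelihood test. miR-210 averaged 10.25 ± 0.57 log2 CPM in 4 mutants and 10.27 ± 0.73 in 5 wild types (SD). Its log2 fold change, mutant over wild type, was -0.10 ± 0.43 (SE), with an adjusted p of 0.999 and a 95% interval of 0.47-fold to 1.83-fold. miR-21 averaged 11.02 ± 0.75 log2 CPM in mutants and 10.78 ± 0.54 in wild types (SD). Its log2 fold change was 0.31 ± 0.40 (SE), with an adjusted p of 0.999 and a 95% interval of 0.66-fold to 2.32-fold. In the same fit 0 of 189 probes passed, a background of 0%, with 7 at an unadjusted p under 0.05, and DESeq2 gave 0 adjusted and 9 unadjusted.

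Both values depended on the samples with cardiac markers. Without mutant 8 alone the log2 fold change of miR-210 was -0.45 and that of miR-21 was -0.16. Without wild type 3 alone they were 0.40 and 0.57. Without both, miR-210 averaged 9.97 ± 0.15 log2 CPM in 3 mutants and 9.95 ± 0.08 in 4 wild types (SD), a log2 fold change of 0.01 ± 0.12 (SE) and an adjusted p of 0.979 in edgeR. The interval was then 0.83-fold to 1.22-fold. miR-21 averaged 10.66 ± 0.30 log2 CPM in 3 mutants and 10.58 ± 0.33 in 4 wild types (SD), a log2 fold change of 0.06 ± 0.22 (SE), with an adjusted p of 0.976 in edgeR and an interval of 0.75-fold to 1.45-fold. Again 0 of 189 probes passed, with 4 at an unadjusted p under 0.05. Exact two-sided permutation tests on log2 CPM over the 9 samples gave p = 0.905 for miR-210 and p = 0.603 for miR-21. In this design 0.00794 is the smallest p of a one-sided test. The two-sided test doubles the one-sided p and so cannot go as low. With wild type 5 counted as mutant the log2 fold changes were -0.29 for miR-210 and 0.11 for miR-21, and with the cardiac samples also left out they were -0.01 and -0.02.

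**Figure D5:**
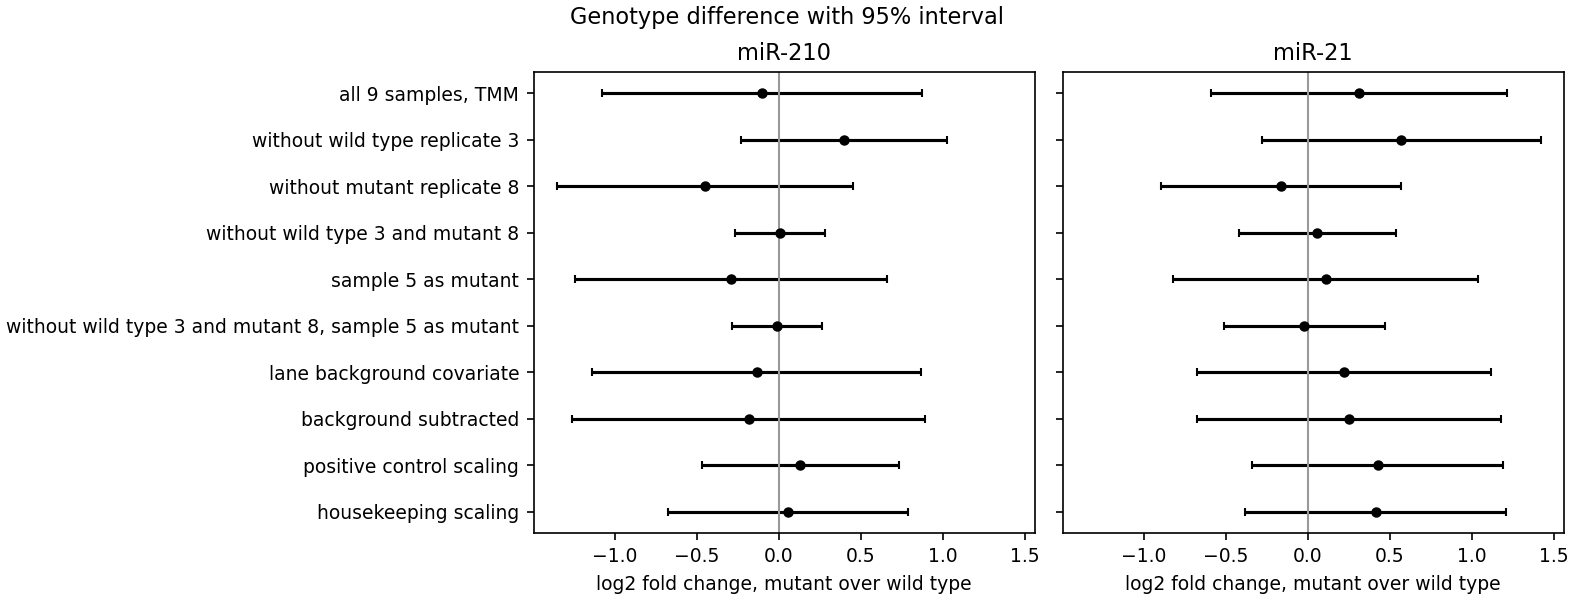
Log2 fold change, mutant over wild type (x axis), of miR-210 and miR-21 in edgeR fits with the samples or scaling named on the y axis. Bars are 95% intervals. The points lie on both sides of 0 for each miRNA, every interval spans 0, and the intervals narrow most when mutant 8 and wild type 3 are both left out.

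The log2 CPM of miR-210 and miR-21 had a Pearson correlation of 0.82 over all 9 samples (Spearman 0.6) and of -0.01 over the 7 with low miR-208a (Spearman 0.18), given as a description. The relation over 9 rested on mutant 8 and wild type 3. The probes most like miR-210 over those 7 samples were miR-335-3p, miR-27b and miR-122, with Pearson correlations of 0.77, 0.73 and 0.69. These were picked as the highest among all kept probes over few samples, and were not tested. miR-122 read 43 to 232 counts in the 7 and passed the threshold in 5 of the 9 samples. Over all 9 samples the closest were miR-378, encoded in the metabolic gene Ppargc1b, the muscle miRNA miR-133a and miR-532-5p. That likeness rested on mutant 8 and wild type 3, because within the 7 others their correlations with miR-210 were 0.50, -0.31 and -0.55. The probes most like miR-21 over the 7 samples, picked in the same way, were miR-377, miR-152 and miR-143, at 0.86, 0.84 and 0.80. miR-377 read only 8.22 to 8.50 log2 CPM in the 7, inside the 7.14 to 9.04 of miR-31, which was not detected there. Over all 9 samples miR-377 was at -0.31 and miR-152 at 0.84. miR-143, a miRNA of smooth muscle and fibroblasts, was the closest to miR-21 over all 9 samples as well, at 0.96, followed by miR-450a-5p and miR-1937a+b, both at 0.89 there and at 0.19 and 0.49 over the 7. It read 13.35 log2 CPM in mutant 8 and 13.11 in wild type 3, against 11.86 to 12.59 in the other 7. All these values share the scaling of each lane.

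Other miRNAs linked to the same processes also showed no called genotype difference. On a list of 9 hypoxia-linked probes (miR-210, miR-199a-5p, miR-107, miR-322, miR-20a+miR-20b, miR-26a, miR-181b+miR-181d, miR-24 and miR-23b), all 9 were kept, 4 read higher and 5 lower in the mutant, and 0 passed. A plus sign marks a probe that reads both miRNAs, and miR-20a is itself a member of the miR-17-92 cluster. Their median log2 fold change was -0.04, against -0.03 over all 189 probes. miR-322, the most abundant of them, had a log2 fold change of -0.28 ± 0.31 (SE), and miR-24, with the smallest p, 0.26 ± 0.25. Of 13 injury and inflammation probes, 9 were kept, and miR-31, miR-155, miR-212 and miR-222 were not. The kept ones were miR-21, miR-146a, miR-146b, miR-132, miR-223, miR-34a, miR-221, miR-199a-5p and miR-214. Among them 4 read higher and 5 lower, 0 passed, and the median was -0.0012. The most abundant, miR-199a-5p, which is on both lists, stood at 0.03 ± 0.23, and miR-223 of myeloid cells, with the smallest p, at -0.39 ± 0.25. Without mutant 8 and wild type 3 the medians were 0.01 for the hypoxia list and 0.05 for the injury list. Housekeeping scaling turned both medians positive, at 0.09 and 0.16, and moved the median of all probes to 0.11, so these directions hold only relative to the scaling.

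In the samples with cardiac markers probes of both lists read in either direction, on log2 CPM with TMM. Among the hypoxia-linked probes miR-210, miR-107 and miR-24 read above all other samples in both, 3 of 9 beside 26.5% of all kept probes. miR-199a-5p and miR-322 read below all others in both, 2 of 9 beside 16.4%. Both counts lie near the shares over all kept probes. Among the injury probes miR-21 alone read above all others in both, 1 of 9 beside 26.5% of all kept probes. On that list 5 of 9 read below in both, beside 16.4% of all kept probes. Those 5 were miR-146a, miR-223, miR-221, miR-199a-5p and miR-214. miR-146a, which restrains inflammatory signalling, was 10.47 log2 CPM in mutant 8 and 10.01 in wild type 3, against 11.79 to 12.49 in the others. With TMM miR-21 moved opposite to 5 of the 9 kept injury probes in these samples, a count given without a test. In wild type 3 alone miR-132 (10.14 log2 CPM, others at most 9.54) and miR-146b (9.34, others at most 8.90) also read above the other 7. With positive control or housekeeping scaling miR-21 in wild type 3 was not above all other samples.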

How the data were processed

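The deposited values were raw counts per panel probe, and what the authors did to them before deposit is not given in the sources used here. A second table gave counts for 12 lanes, per the file headers, because 3 samples (1, 5 and 6) had a repeat lane. The first lanes, equal to the deposited count table in all 5634 values, were used throughout. No aligner or genome build entered. A mouse probe was kept if above its lane threshold in at least 4 samples, which left 189 of 566. Tests used edgeR 4.0.16 in R 4.3.3 (TMM, glmQLFit, glmQLFTest, no covariate), with Benjamini-Hochberg adjustment over the 189 probes at 0.05, and were tested on simulated data. Log2 CPM used a prior count of 2. Alternatives used DESeq2 1.42.0 and limma 3.58.1.

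The probes, the 500-count limit on miR-208a and both lists were chosen with earlier results of these data known. Beside the 3 members, the text names the most abundant and smallest-p kept probe of each list, and the 3 kept probes with the highest Pearson correlation with each kept member over 9 and over 7 samples. List probes outside all other samples, and those not kept, were named after their values were seen.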

Additional observations from a re-analysis of the deposited data

Results flagged for a closer look

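In a gap test for single outliers within each genotype, applied to log2 CPM of miR-210, miR-21 and miR-31, 1 value in 6 groups was marked. miR-210 in wild type 3, at 11.57 log2 CPM, lay far above the other wild types, with a gap to the nearest of them of 0.901 of the whole range. Chance marks about 1 group in 20. The same sample was 1 of the pair with miR-208a above 500 counts, and mutant 8, the other, was not marked at 11.09. The limit of this test depends on group size, at 0.829 for the 4 mutants and 0.71 for the 5 wild types. The 2 samples were thus not judged by the same limit.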

How the results depend on the processing

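No probe was called between genotypes under any alternative run, and adjusted p-values of miR-210 and miR-21 ran from 0.668 to 1.00. No paired analysis was made, because the labels give no litter or pairing and the replicate numbers run on across both genotypes. The log2 fold change of miR-210, -0.10, changed sign with positive control scaling (0.13), housekeeping scaling (0.056), no filter (0.010), limma on log2 scaled counts (0.030) and without mutant 8 and wild type 3 (0.0060). Leaving out each sample gave -0.45 to 0.40. That of miR-21, 0.31, changed sign without those samples and with sample 5 as mutant (-0.021), and ran from -0.16 to 0.57 when each sample was left out. miR-31 did not pass the filter, so it has a value only with no filter, 0.06 ± 0.29 (SE). Background subtraction moved its share over the samples with low miR-208a to 0.0145% and that of miR-210 to 0.0923%. The excess of miR-210 in wild type 3 was 1.26, 1.22, 0.57 and 1.17 log2 with total count, top-100, positive control and housekeeping scaling, and 1.83 after background subtraction, and in mutant 8 it was 0.94, 0.70, 0.80 and 0.74 with the 4 scalings. For miR-21 the 4 values were 0.66, 0.62, -0.028 and 0.57 in wild type 3, and the last 3 were 1.00, 1.10 and 1.04 in mutant 8. miR-31 gave -0.47 in wild type 3 with positive controls, and -0.038, -0.28, -0.17 and -0.24 in mutant 8 with the 4 scalings. The cause of these shifts was not tested. Lane background limits what can be said of miR-31, and the genotype intervals of miR-210 and miR-21 were widest with mutant 8 or wild type 3 in the fit.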
